A study of Homo sapiens with 18 samples.

Results

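The 8 genes described here are the long nuclear RNAs NEAT1 and MALAT1 and 6 genes for proteins of the paraspeckle, SFPQ, NONO, PSPC1, RBM14, HNRNPK and CPSF6. They were taken by name from the gene counts of 18 RNA-seq libraries, 8 of the 59251 genes counted, and all 8 were among the 21615 genes with enough counts to be tested. The set was chosen from the levels of NEAT1 and MALAT1 in these same libraries, so the values of these 2 RNAs are given as a description with no test. The 6 protein genes were included for their known role and were tested in a fit across all genes. They and the wider lists below were chosen with earlier results of these data known, so their choice was not independent of these libraries.

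A paraspeckle is a body in the nucleus that assembles on NEAT1. NEAT1 is made as a short form with a poly(A) tail and a long form that runs on past the short form's end, and the long form is the one that builds the body. SFPQ and NONO coat the RNA and are needed for the body to form, and the body retains proteins and edited RNAs in the nucleus. MALAT1 lies next to NEAT1 on the chromosome, is among the most abundant long non-coding RNAs of many cells, and collects in the nuclear speckles, which store splicing factors. The long form of NEAT1 and MALAT1 share an unusual 3′ end: RNase P cuts them ahead of a tRNA-like fold, and a triple helix of U-rich and A-rich stretches protects the end in place of a poly(A) tail.

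The cells were HAP1, a human line that is close to haploid, grown in IMDM medium. SARS2 encodes the mitochondrial seryl-tRNA synthetase, and the study set cells that express it beside cells depleted of it for 3, 6 or 9 days. The 6 groups of 3 libraries were the unmodified parental line with 15 ng/mL doxycycline, the parental line with no doxycycline, the ∆SARS2+SARS2-1xFLAG line with doxycycline, and that line at 3, 6 and 9 days with no doxycycline. The ∆SARS2+SARS2-1xFLAG line, called the deleted line here, lacks its own SARS2 and carries a FLAG-tagged copy. Each label gives a replicate number, but no label says whether replicates were separate cultures or whether the line is 1 clone, so p-values measure the spread between these libraries, which may be technical.

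The libraries held 66850705 to 111123481 counts. Replicates of each group differed by more than sampling noise, and the libraries of day 9 and of the parental line with no doxycycline differed most among themselves. SARS2 itself did not fall where the labels state its loss: its mean level was 24.2 CPM, a gene's count relative to the scaled size of its library, in the deleted line given doxycycline and 31.6, 24.7 and 41.8 CPM in the libraries labelled day 3, day 6 and day 9, against 44.3 CPM in the parental line with doxycycline. The counts do not separate the tagged copy from the native gene, so the day labels are used as given. Of 10 blood cell markers, 8 stayed below 1 CPM in every library and 3 of these had no count, although HAP1 derives from a leukaemia. The summed level of these markers was 48.2 to 54.99 CPM in the parental libraries with no doxycycline, 38.5 to 43.7 CPM at day 6 and 17.3 to 33.5 CPM in the other groups. The same groups stood highest for NEAT1 below, though with day 6 first. The sum rests mainly on KIT and ITGA2B, with means of 25.8 and 24.5 CPM in the parental line with no doxycycline. At day 9 against doxycycline KIT fell by 0.99 on the log2 scale. CD33 and CD34, both below 1 CPM, rose there by 2.14 and 2.65. The summed level of 6 epithelial markers, 3 of them below 1 CPM in every library, was 55.5 to 63.2 CPM at day 9 and 27.1 to 48.2 CPM in the other groups, lowest in the parental line with no doxycycline. That of 7 mesenchymal markers was 912 to 1209 CPM at day 9 and 596 to 884 CPM elsewhere. The epithelial and mesenchymal sums rest mainly on KRT18 and VIM, with means of 56.2 and 869 CPM at day 9. CLDN4, ZEB1 and COL1A1 were lower at day 9 than with doxycycline. At an edgeR adjusted p below 0.05, 1 of 4 epithelial markers tested rose there and 1 fell, 50.0% of those tested. Of 6 mesenchymal ones, 2 rose and 2 fell, 66.7%, against 46.4% of all genes. The part of these markers in the values below was not tested. In bulk RNA, fewer cells of a type and less RNA per cell cannot be told apart.

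The 3′ ends of the 2 RNAs are shown because they carry the feature that sets both apart from polyadenylated transcripts and that the RNA 3′ processing genes below act on. The sequences come from GENCODE v29 transcripts on GRCh38, plus strand. The NEAT1 window, chr11:65445431-65445540, is the last 110 bases of the long NEAT1 transcript. The MALAT1 window, chr11:65506007-65506116, is the 110 bases of a 1-exon MALAT1 transcript that end next to the first base of the tRNA-like mascRNA gene, and 353 bases of the annotated transcript follow it. Capitals mark the A-rich tract AAAAAGCAAAA, the longest 3′ end of the NEAT1 transcript that the MALAT1 transcript also holds, and the U-rich motif TTTTGCTTTT, the U-rich run within the longest other stretch that both windows share. Both are written as DNA and were searched on the transcript strand.
NEAT1: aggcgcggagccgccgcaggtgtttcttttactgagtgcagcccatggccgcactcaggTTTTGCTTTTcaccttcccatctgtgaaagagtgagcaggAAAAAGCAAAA
MALAT1: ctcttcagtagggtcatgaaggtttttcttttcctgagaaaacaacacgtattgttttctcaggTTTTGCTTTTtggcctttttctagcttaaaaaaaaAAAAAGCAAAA
Both windows hold both stretches in the same order, and the A-rich tract is the last of the window in each. They were found by comparing these 2 RNAs, so their presence in both is given by that choice. Among the last 110 bases of 14370 lincRNA transcripts of the annotation, 10 held the U-rich motif (0.0696%) and 9 the A-rich tract (0.0626%), and the 1 that held both was NEAT1 itself. NEAT1 had to match, as both stretches were taken from it. The last 110 bases of the MALAT1 transcript shown lie beyond its window. The counts therefore do not show how rare such 3′ ends are. A match of letters is a description and does not show a fold.

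NEAT1 spans chr11:65422798-65445540 on the plus strand as 1 exon of 22743 bases, and MALAT1 spans chr11:65497738-65506516 on the same strand as 1 exon of 8779 bases. A gap of 52197 bases separates them. The gene model behind the counts also holds exons of FRMD8 on the same strand that cover the first 3729 bases of NEAT1. The short form of NEAT1 in that model has 3735 bases, of which 6 lie outside FRMD8 exons. No source used here says how reads shared by 2 genes were treated. If they were assigned to neither gene, the NEAT1 counts come almost wholly from the 18914 bases not shared with another gene on that strand, which belong to the long form.

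NEAT1 was highest in the day 6 libraries and in parental cells with no doxycycline, and lowest in the day 9 libraries. The 3 parental libraries with doxycycline had 3.85, 3.70 and 4.28 CPM, and the 3 with no doxycycline had 15.0, 12.6 and 16.2 CPM. In the deleted line the values were 6.65, 7.22 and 6.70 CPM with doxycycline and 4.53, 4.82 and 5.75 CPM at day 3. They were 13.04, 18.2 and 17.7 CPM at day 6 and 2.71, 2.001 and 3.99 CPM at day 9. Every library of day 6 was therefore above every library of the deleted line with doxycycline, and every library of days 3 and 9 was below it.

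From highest to lowest, the group means of NEAT1 were 16.3 ± 2.84 CPM at day 6, 14.6 ± 1.83 in the parental line with no doxycycline, 6.86 ± 0.313 in the deleted line given doxycycline, 5.03 ± 0.638 at day 3, 3.94 ± 0.3002 in the parental line with doxycycline and 2.90 ± 1.01 at day 9 (SD, n = 3 each). The highest and the next in this order overlapped, as did the lowest and the one above it. The other 13 of 15 pairs of groups did not overlap, a count that was not made over all genes. The counts behind these levels ran from 190 to 1804 per library, so the lowest library, in the day 9 group, rests on few reads.

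**Figure D1:**
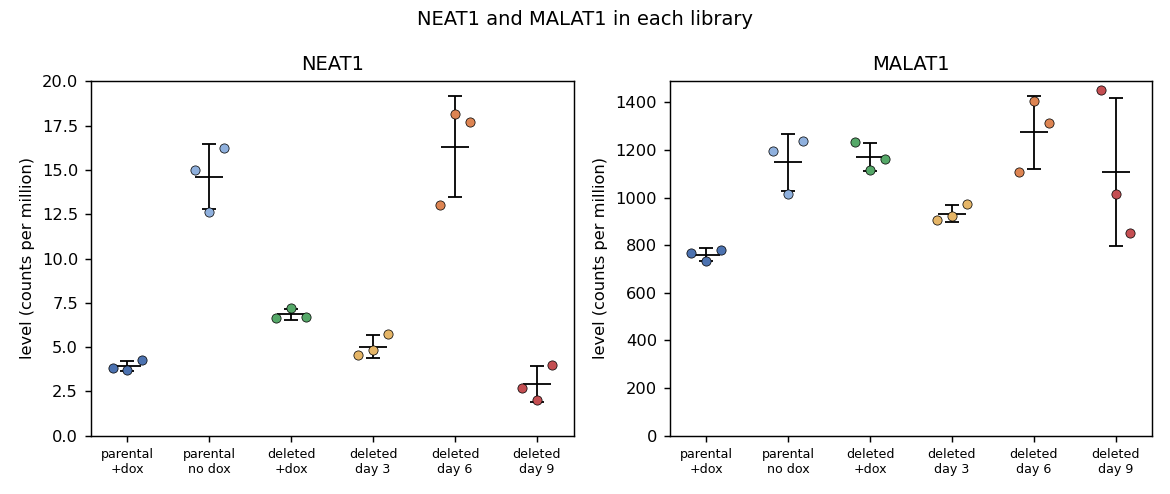
Levels of NEAT1 (left) and MALAT1 (right) in CPM on axes that start at 0, 1 point per library, with the group mean and SD as a bar. NEAT1 lies between 12.6 and 18.2 CPM in the parental line with no doxycycline and at day 6 and at 7.22 CPM or less elsewhere, while for MALAT1 the parental line with doxycycline lies below all other groups and day 3 overlaps day 9 only.

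As fold changes on the log2 scale, NEAT1 in the deleted line differed from doxycycline by -0.45 ± 0.18 at day 3, 1.25 ± 0.18 at day 6 and -1.24 ± 0.19 at day 9 (SE). The level at day 6 was 2.38 times and that at day 9 was 0.42 times the level with doxycycline. From day 6 to day 9 the difference was -2.49 ± 0.19. The parental line with no doxycycline differed from the same line with doxycycline by 1.89 ± 0.19, a larger step than at any day of the deleted line, and the deleted line differed from the parental line by 0.80 ± 0.18 when both had doxycycline. All of these kept their sign when any 1 library was left out, and with the highest day 9 library, replicate 3, left out the day 9 difference was -1.54.

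Without doxycycline, NEAT1 in the deleted line did not follow the parental line at days 3 and 9. At day 6 its libraries overlapped those of the parental line with no doxycycline. The change of NEAT1 in the deleted line minus that in the parental line was -2.34 ± 0.26 at day 3, -0.64 ± 0.26 at day 6 and -3.13 ± 0.26 at day 9 on the log2 scale (SE). The labels give no day for the parental libraries with no doxycycline, so the 3 values share that 1 parental change, the doxycycline libraries of both lines included, and are not matched in time. At day 6 both lines were higher without doxycycline, and at days 3 and 9 they moved in opposite directions.

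MALAT1 was abundant in every library and moved much less. The parental libraries had 768, 732 and 782 CPM with doxycycline and 1195, 1013 and 1238 CPM without it. The deleted line had 1233, 1114 and 1163 CPM with doxycycline and 904, 921 and 972 CPM at day 3. It had 1106, 1404 and 1314 CPM at day 6 and 1453, 1017 and 850 CPM at day 9. The parental libraries with doxycycline were the lowest of all and overlapped no other group, day 3 lay below the deleted line with doxycycline, and the day 9 libraries included both the lowest and the highest of the deleted line.

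The group means of MALAT1 were 1274 ± 153 CPM at day 6, 1170 ± 60.1 in the deleted line with doxycycline, 1149 ± 119 in the parental line with no doxycycline, 1107 ± 311 at day 9, 932 ± 35.3 at day 3 and, lowest, 761 ± 25.9 in the parental line with doxycycline (SD, n = 3 each). The first 4 of these overlapped each other pair by pair, and 8 of 15 pairs of groups did not overlap. That count too was not made over all genes. On the log2 scale the deleted line differed from doxycycline by -0.33 ± 0.13 at day 3, 0.12 ± 0.13 at day 6 and -0.08 ± 0.13 at day 9 (SE). The day 9 value turned on replicate 1, and was -0.33 without it and 0.08 without replicate 3.

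MALAT1 in the parental line with no doxycycline was 0.60 ± 0.13 above that with doxycycline on the log2 scale (SE), and in the deleted line with doxycycline it was 0.62 ± 0.13 above the parental line with doxycycline. The change in the deleted line minus that in the parental line was -0.92 ± 0.19 at day 3, -0.47 ± 0.19 at day 6 and -0.68 ± 0.19 at day 9. TALAM1, an antisense transcript, shares 7205 of the 8779 exonic bases of MALAT1 and had 29 to 97 counts per library against 69111 or more for MALAT1. Column names carry RF, the alignment's code for a stranded library, and no source used here says whether counting used the strand.

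Per kilobase of exon, MALAT1 averaged 121 CPM and ranked 415 of 21615 genes, while NEAT1 averaged 0.364 CPM and ranked 15258. These ranks compare counts in the libraries. How RNA was selected before sequencing, by poly(A) tail or otherwise, is not stated here, and its part in these levels was not tested. Over its bases not shared with FRMD8 and other genes, NEAT1 would average 0.437 CPM per kilobase. MALAT1 would average 122 CPM per kilobase over bases shared with no gene on its strand, and 677 over bases shared with none on either strand. Which of these applies depends on how reads were counted, which is not known here. The ratios that follow use all exonic bases. The ratio of MALAT1 to NEAT1 per kilobase was 501 ± 24.0 in the parental line with doxycycline, 443 ± 40.7 in the deleted line with doxycycline and 483 ± 40.9 at day 3 (SD, n = 3). It was 204 ± 5.66 in the parental line with no doxycycline, 204 ± 14.2 at day 6 and 1086 ± 464 at day 9, where the libraries ran from 552 to 1389. The spread of NEAT1 over the 18 libraries, an SD of 0.98 in log2 CPM, was larger than that of 91.5% of genes, and that of MALAT1, 0.30, was larger than that of 40.2%.

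SFPQ, NONO and PSPC1 form one family of RNA-binding proteins that pair with each other and bind NEAT1. SFPQ lies at chr1:35176380-35193145, NONO at chrX:71283635-71301168 and PSPC1 at chr13:19671205-19782945. SFPQ had 654, 686 and 719 CPM in the parental line with doxycycline and 894, 909 and 766 CPM with none. In the deleted line it had 627, 712 and 669 CPM with doxycycline, 703, 750 and 759 CPM at day 3, 593, 632 and 636 CPM at day 6 and 923, 865 and 1098 CPM at day 9. Day 9 and the parental line with no doxycycline were the 2 high groups and overlapped each other, and neither overlapped its own line with doxycycline.

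SFPQ was 1.44 times its doxycycline level at day 9 (log2 0.52 ± 0.08 SE, adjusted p = 3.8e-05 by edgeR's quasi-likelihood test with Benjamini-Hochberg adjustment) and 1.25 times in the parental line with no doxycycline (0.32 ± 0.08, adjusted p = 0.0044). At day 3 it was 0.14 ± 0.08 and at day 6 -0.11 ± 0.08, and neither passed the threshold of 0.05 (adjusted p = 0.28 and 0.34 by edgeR). NONO, at 1181 to 1654 CPM in all libraries, was the steadiest of the 8 genes, with a spread larger than that of 6.21% of genes. Its difference from doxycycline was 0.08 at day 3, -0.18 at day 6 and 0.03 at day 9, with 95% intervals of -0.09 to 0.25, -0.35 to -0.01 and -0.14 to 0.20 on the log2 scale, and none passed. PSPC1 rose by 0.44 ± 0.07 at day 9 (edgeR adjusted p = 3.9e-05) and by 0.32 ± 0.07 in the parental line with no doxycycline (0.0014).

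The PSPC1 libraries had 103, 103 and 115 CPM with doxycycline in the deleted line, 118, 124 and 125 CPM at day 3, 115, 108 and 102 CPM at day 6 and 150, 156 and 129 CPM at day 9. They had 115, 110 and 110 CPM in the parental line with doxycycline and 143, 139 and 135 CPM with none. Day 9 overlapped no other group of the deleted line, and the parental groups did not overlap each other. PSPC1 spans 111.741 kb, the most of the 8, and with the trend of each library's counts along gene span removed the parental difference was 0.18 and no longer passed (edgeR adjusted p = 0.080), while that at day 9 was 0.63. Its exons share 1692 bases with MPHOSPH8 on the other strand.

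RBM14, HNRNPK and CPSF6 act on the body and on the choice between the NEAT1 forms. RBM14, at chr11:66616630-66629934, bridges the particles of the paraspeckle and is needed for it. It had 90.8, 93.9 and 96.5 CPM in the parental line with doxycycline and 70.0, 77.9 and 76.1 CPM with none. The deleted line had 88.5, 86.6 and 92.8 CPM with doxycycline and 96.7, 105 and 98.7 CPM at day 3. It had 68.6, 64.9 and 63.7 CPM at day 6 and 162, 115 and 161 CPM at day 9. Of the 15 pairs of groups, only the 2 with doxycycline overlapped, the fewest overlaps of the 8 genes. Such a count was not made over all genes tested.

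RBM14 fell by 0.44 on the log2 scale at day 6 (SE 0.09, edgeR adjusted p = 0.0018) and rose by 0.71 ± 0.09 at day 9 (6.0e-06). In the parental line with no doxycycline it fell by 0.33 (SE 0.09, edgeR adjusted p = 0.0091). The step from day 6 to day 9, 1.15 ± 0.09, was a factor of 2.22 (edgeR adjusted p = 7.3e-09). NEAT1 was high in the 2 groups in which RBM14 was lowest, and lowest at day 9, in which RBM14 was highest. RBM14 shares 428 of its 5367 exonic bases with the read-through gene RBM14-RBM4, which had no count in any library.

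HNRNPK, at chr9:83968083-83980615, binds NEAT1 near the end of the short form and favours the long form by keeping the cleavage complex away. CPSF6, at chr12:69239569-69274358, is a subunit of that complex, cleavage factor Im, and favours the short form. HNRNPK had 1030, 1024 and 1072 CPM in the parental line with doxycycline and 760, 754 and 876 CPM with none. CPSF6 had 206, 214 and 215 CPM with doxycycline and 318, 283 and 288 CPM with none. In the parental line, with no overlap for either gene, HNRNPK fell by 0.39 (SE 0.08, edgeR adjusted p = 0.00055) and CPSF6 rose by 0.48 ± 0.07 on the log2 scale (2.3e-05).

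In the deleted line neither gene passed against doxycycline at any day, though HNRNPK did at day 6 when fitted on the compared groups alone (-0.15, edgeR adjusted p = 0.023) and at day 9 without day 9 replicate 2 (0.21, 0.027). HNRNPK ran from 953 to 1050 CPM with doxycycline, from 1056 to 1144 at day 3, from 881 to 914 at day 6 and from 974 to 1239 at day 9. CPSF6 ran from 214 to 226 CPM with doxycycline, from 210 to 216 at day 3, from 220 to 236 at day 6 and from 196 to 244 at day 9. The CPSF6 differences were -0.05, 0.03 and 0.00 on the log2 scale, with 95% intervals of -0.18 to 0.08, -0.10 to 0.16 and -0.14 to 0.13. NUDT21, the partner of CPSF6 in cleavage factor Im, was named after its values were seen: it rose by 0.24 ± 0.08 at day 6 and by 0.34 ± 0.08 in the parental line with no doxycycline (edgeR adjusted p = 0.024 and 0.0016). The day 6 call of NUDT21 was lost without day 6 replicate 2 (0.145 by edgeR) and without any 1 of the deleted line's libraries with doxycycline.

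**Figure D2:**
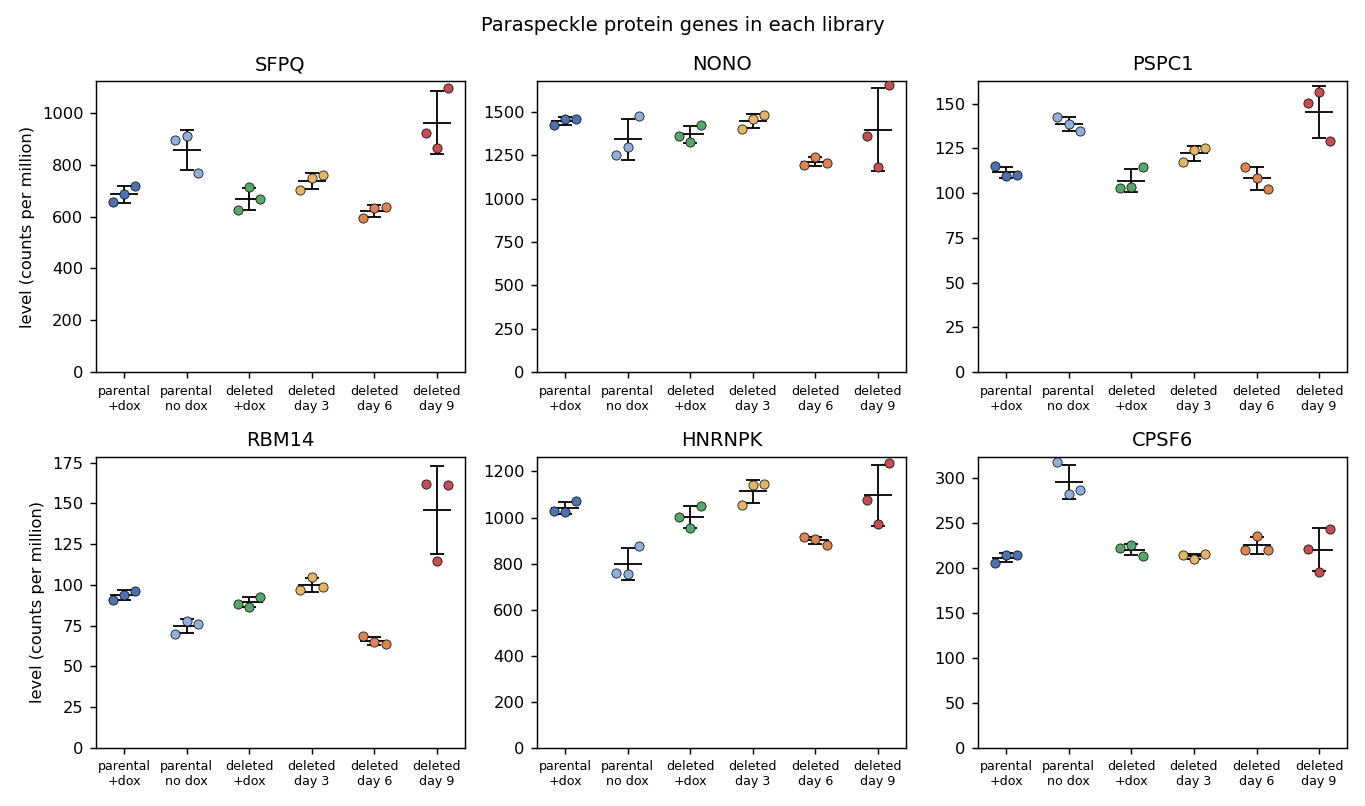
Levels of the 6 paraspeckle protein genes in CPM on axes that start at 0, 1 point per library, with the group mean and SD as a bar. RBM14 is lowest at day 6 and highest at day 9, SFPQ and PSPC1 are high at day 9 and in the parental line with no doxycycline, and CPSF6 is high in the parental line with no doxycycline alone.

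Against doxycycline, none of the 6 protein genes passed at day 3, where 13.4% of all genes tested did, 1 of 6 passed at day 6 (28.1% of all genes) and 3 of 6 at day 9 (46.4%). In the parental line with no doxycycline 5 of 6 passed, 3 higher and 2 lower, where 39.4% of all genes did. Between the 2 lines with doxycycline none passed, where 19.3% of all genes did. By edgeR fitted on the compared groups alone, 4 of 6 were higher at day 3, where 29.8% of all genes passed in that fit, and 3 of 6 (RBM14, NONO and HNRNPK) were lower at day 6, where 33.3% did. The median log2 difference of the 6 was 0.15, -0.13 and 0.29 at days 3, 6 and 9, 0.10 in the parental line and -0.06 between lines, and the medians over all genes tested were 0.00, 0.01, -0.01, 0.03 and 0.01. Scaled by library size alone, the share of called genes that were higher moved from 50.0% to 64.3% at day 6, and the median of the 6 there became -0.06.

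**Figure D3:**
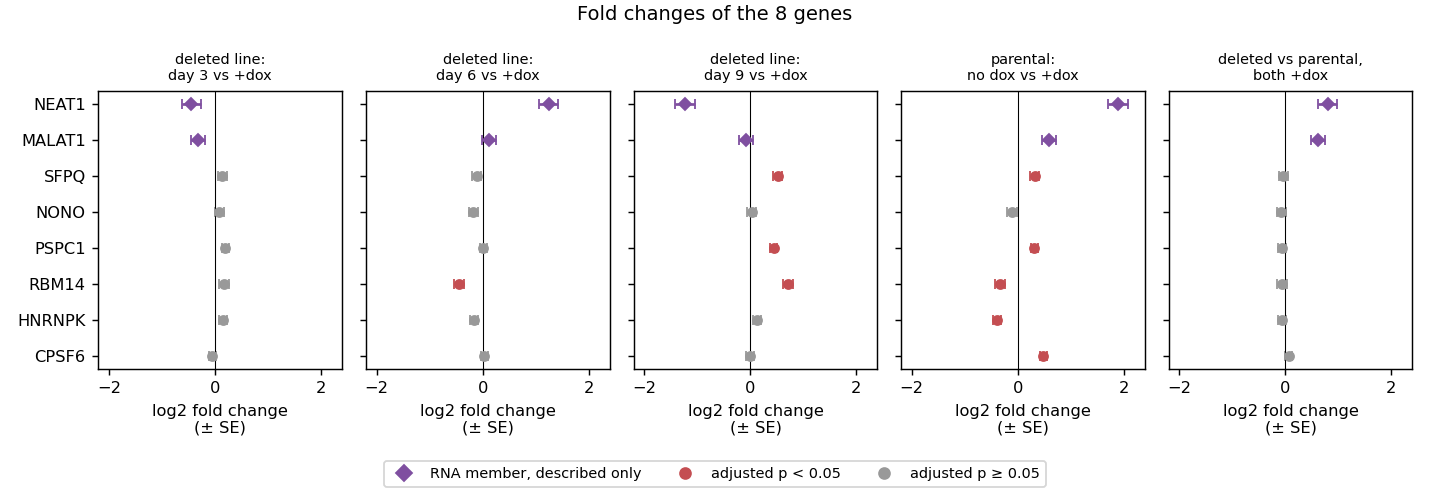
Log2 fold changes of the 8 genes with their SE in 5 comparisons, with diamonds for the 2 RNAs, which were described only, and circles for the protein genes, red where the adjusted p was below 0.05. NEAT1 lies at 1.25 and -1.24 at days 6 and 9 and at 1.89 in the parental line, and no protein gene passes at day 3 or between lines.

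Among the days of the deleted line, 5 of 6 protein genes were lower at day 6 than at day 3 (42.7% of all genes passed), by 0.18 for PSPC1 up to 0.60 for RBM14 on the log2 scale. CPSF6, at 0.08, was the one that did not pass. From day 6 to day 9, 4 of 6 rose (58.8% of all genes passed, 48.7% of them higher, or 38.6% when scaled by library size alone): SFPQ by 0.63, PSPC1 by 0.42, RBM14 by 1.15 and HNRNPK by 0.28. NONO, at 0.21, had an edgeR adjusted p of 0.0501. Day 9 against day 3 gave 3 of 6 higher (29.8% of all genes, 49.8% of them higher, or 34.9% by library size alone), with SFPQ at 0.38, PSPC1 at 0.25 and RBM14 at 0.55. Each of the falls of SFPQ, NONO and PSPC1 from day 3 to day 6 missed the threshold without day 3 replicate 2 or without day 3 replicate 3, as did SFPQ and NONO without day 6 replicate 1 and PSPC1 without day 6 replicate 2 or 3. SFPQ and NONO also missed it with the span trend removed (0.058 and 0.065), and PSPC1 under RLE, library size alone (0.26), no filter, the replicate block and DESeq2. The rise of PSPC1 from day 3 to day 9 missed it without day 3 replicate 1 or day 9 replicate 1 or 2, and the HNRNPK rise from day 6 to day 9 was 0.16 and did not pass with the trend along gene span removed.

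The difference between the 2 lines in the response to no doxycycline was tested for each protein gene at each day, each time against the same parental change, for which the labels give no day. At day 3, 3 of 6 passed (39.5% of all genes): RBM14 at 0.49, HNRNPK at 0.54 and CPSF6 at -0.53 on the log2 scale, deleted minus parental line (edgeR adjusted p = 0.0063, 0.00061 and 0.00025). At day 6, 2 of 6 passed (12.6% of all genes), SFPQ at -0.43 and CPSF6 at -0.46 (0.021 and 0.0052 by edgeR). The SFPQ value did not pass without parental replicate 1 with doxycycline, deleted line replicate 2 with doxycycline or day 6 replicate 1. At day 9, 3 of 6 passed (51.7% of all genes), RBM14 at 1.04, HNRNPK at 0.52 and CPSF6 at -0.49, with edgeR adjusted p of 2.7e-06, 0.00051 and 0.00031. CPSF6 passed at all 3 days, with a rise of 0.48 in the parental line and values of -0.05 to 0.03 in the deleted line.

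A wider list of 34 other proteins found in paraspeckles was measured in full. At day 3, 3 rose and 2 fell, 14.7% of the list against 13.4% of all genes. At day 6, 4 rose and 12 fell, 47.1% of the list against 28.1% of all genes, with a median of -0.13 on the log2 scale. At day 9, 12 rose and 4 fell, the same share of the list against 46.4% of all genes, with a median of 0.05 that became -0.01 when libraries were scaled by size alone. In the parental line with no doxycycline 5 rose and 13 fell, 52.9% against 39.4%, with a median of -0.12. Between the lines with doxycycline 3 rose and 3 fell, 17.6% against 19.3%. HNRNPM, a splicing regulator, passed in all 5 comparisons: its mean was 746 CPM in the parental line with doxycycline and 281 CPM with none, and in the deleted line it was 529 CPM with doxycycline and 823, 259 and 1102 CPM at days 3, 6 and 9.

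HNRNPM thus stood lowest in the 2 groups in which NEAT1 stood highest, with log2 differences of 0.64, -1.03 and 1.06 at days 3, 6 and 9 and of -1.41 in the parental line (edgeR adjusted p of 0.0056, 3.1e-05, 5.0e-06 and 6.9e-07). ZC3H6, a zinc finger protein, had the same order of groups as NEAT1 at its ends: 71.3 CPM at day 6, 62.7 CPM in the parental line with no doxycycline and 11.3 CPM at day 9. It fell by 0.75 at day 3, fell by 2.29 at day 9 and rose by 0.82 in the parental line (edgeR adjusted p = 0.0015, 1.1e-09 and 8.3e-05). Its day 6 difference of 0.37 (0.042 by edgeR) passed neither with the replicate block (0.056) nor with the span trend removed (0.071), nor without deleted line replicate 1 or 3 with doxycycline or day 6 replicate 2 or 3, and was lowest, 0.25, without the named replicate 3 with doxycycline. RBM12 fell by 0.89 at day 6, the cold-inducible RBM3 fell by 0.65 at day 6 and by 0.64 in the parental line, and CELF6, a splicing regulator at 0.473 CPM with doxycycline and 2.82 CPM at day 9, rose by 2.58.

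Genes that act at the 3′ end shown above, the subunits of RNase P, the tRNA 3′ nuclease ELAC2 and the triple helix binder METTL16, numbered 13. At day 3, 1 rose, 7.69% of the list against 13.4% of all genes, and between the lines with doxycycline 5 fell, 38.5% against 19.3%. At day 6, 0 rose and 7 fell, 53.8% of the list against 28.1% of all genes, with a median of -0.40. In the parental line with no doxycycline 0 rose and 10 fell, 76.9% against 39.4%, with a median of -0.43. At day 9, 8 rose and 0 fell, 61.5% against 46.4%, with a median of 0.30. Scaled by library size alone, 4 fell at day 6 with a median of -0.33, where 29.1% of all genes passed in that fit. POP1, the large protein subunit of RNase P, was at 32.5 CPM at day 6 against 60.2 CPM with doxycycline, a difference of -0.89. RPP40 rose by 1.06 at day 9, and POP7 rose by 0.54 at day 9 and fell by 0.96 in the parental line, all on the log2 scale (edgeR adjusted p from 2.2e-08 to 0.00060).

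Of 15 subunits and cofactors of the nuclear exosome, which degrades unprotected nuclear RNA, 1 rose at day 3, 4 fell and 0 rose at day 6, 7 rose and 2 fell at day 9, 1 rose and 8 fell in the parental line with no doxycycline, and 1 rose and 1 fell between lines. These were 26.7%, 60.0% and 60.0% of the list at days 6 and 9 and for the parental line, against 28.1%, 46.4% and 39.4% of all genes. At day 3 and between lines they were 6.67% and 13.3%, against 13.4% and 19.3%. EXOSC9 fell by 0.39 at day 6, EXOSC6 rose by 0.73 at day 9 and fell by 0.66 in the parental line, and EXOSC4 fell by 1.19 there. Of 15 nuclear speckle genes, the body in which MALAT1 collects, 3 rose at day 3, 3 rose and 5 fell at day 6, 10 rose and 2 fell at day 9, 4 rose and 6 fell in the parental line, and 1 fell between lines. That was 53.3%, 80.0% and 66.7% of the list at days 6 and 9 and for the parental line, beside the same shares of all genes. At day 3, where 3 of the 15 passed, 13.4% of all genes did. Between lines 6.67% of the list passed, against 19.3%. The kinase CLK1 rose by 0.80 at day 6, the splicing factor SRSF6 rose by 1.11 at day 9, and U2AF2 fell by 0.91 in the parental line.

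**Figure D4:**
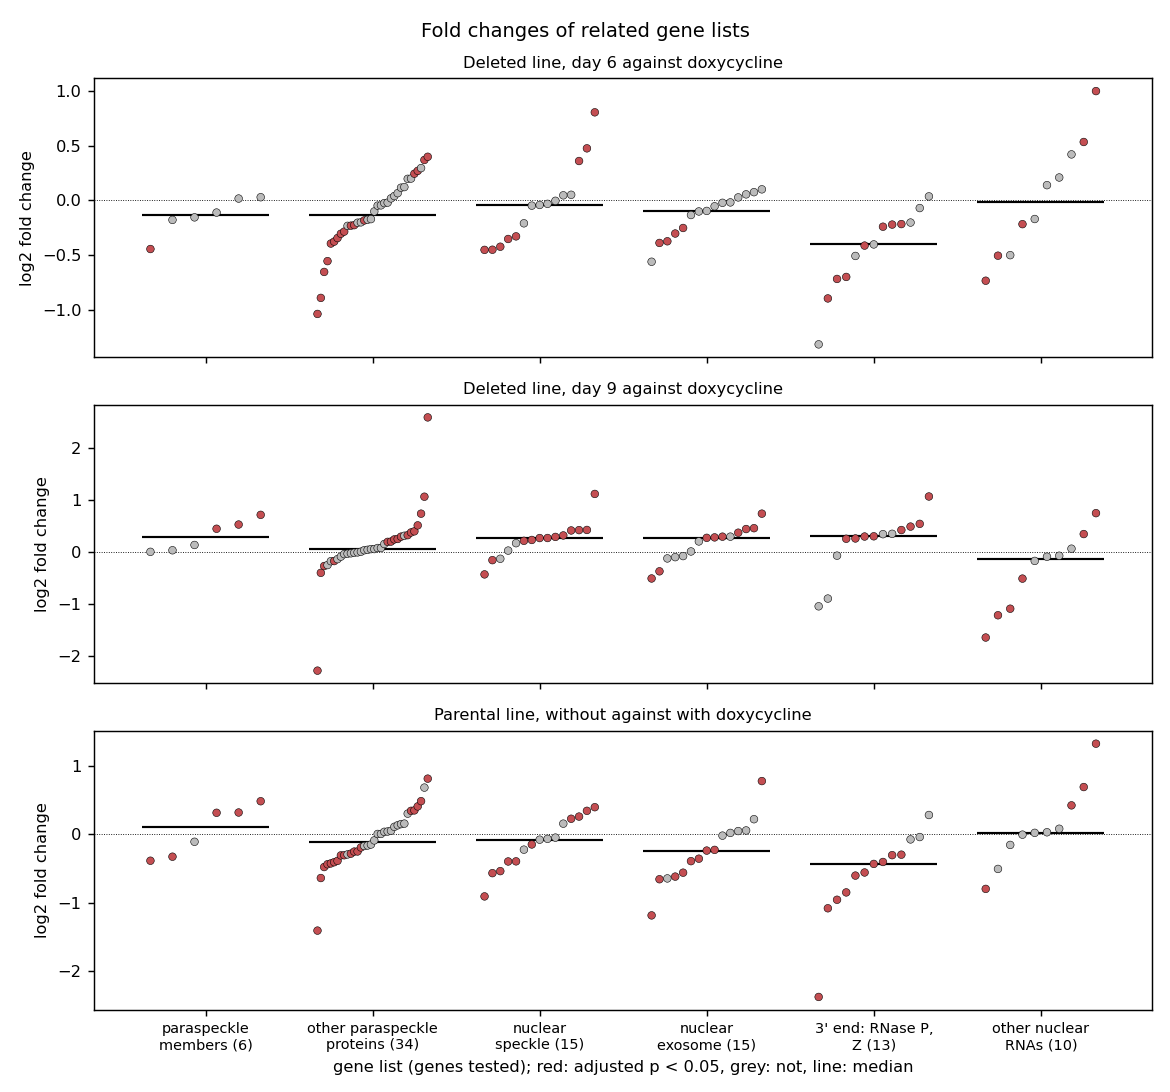
Log2 fold changes of 6 gene lists in 3 comparisons, 1 point per gene tested, sorted within each list, red where the adjusted p was below 0.05, with a line at each list's median. The list of RNA 3′ processing genes has a median of -0.40 at day 6 and -0.43 in the parental line and 0.30 at day 9.

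Of 12 other RNAs known to stay in the nucleus, 10 were tested. MIAT, a spliced RNA held in nuclear domains of its own, had the order of groups closest to NEAT1 at its ends: it rose by 1.00 ± 0.12 at day 6, fell by 1.22 (SE 0.12) at day 9, and rose by 1.33 ± 0.12 in the parental line with no doxycycline (edgeR adjusted p of 1.3e-05, 2.8e-07 and 3.4e-07). LINC-PINT had the same order at its ends, with means of 19.7 CPM at day 6, 15.6 CPM in the parental line with no doxycycline and 6.39 CPM at day 9. Its differences were 0.69 in the parental line and -1.10 at day 9 (edgeR adjusted p = 0.0045 and 6.7e-05), and the smaller one of 0.53 at day 6 did not pass with the span trend removed (0.157) or without deleted line replicate 2 or 3 with doxycycline or day 6 replicate 2, and was 0.25 without the last. DLEU2 went the other way at day 6 and in the parental line, where it fell by 0.73 and fell by 0.80. MEG3, at 0.488 CPM or less in every group mean, fell by 1.65 at day 9. In all, 1 of the 10 rose and 3 fell at day 3, 2 rose and 3 fell at day 6, 2 rose and 4 fell at day 9, 3 rose and 1 fell in the parental line, and 2 rose between the lines with doxycycline. The called shares for days 3, 6 and 9 and the parental line were 40.0%, 50.0%, 60.0% and 40.0%, against 13.4%, 28.1%, 46.4% and 39.4% of all genes. Between the lines, where 2 of the 10 passed, 19.3% of all genes did.

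Of 6 transcription factors known to drive NEAT1, none passed at day 3, 1 rose at day 6, 3 rose and 3 fell at day 9, 1 rose and 2 fell in the parental line, and 1 rose between lines. At day 9 all 6 thus passed, against 46.4% of all genes, and at day 6 16.7% did, against 28.1%. In the parental line 50.0% passed and between lines 16.7%, against 39.4% and 19.3%. At day 3, where none passed, 13.4% of all genes did. ATF2 rose by 0.37 at day 6, a call lost without day 6 replicate 2 (edgeR adjusted p = 0.053), and fell by 0.47 at day 9. EPAS1, a hypoxia-inducible factor subunit, fell by 1.17 at day 9.

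The genes whose profile lay nearest to NEAT1 were sought by the root mean square distance between log2 CPM values, each centred over the 18 libraries. The nearest 10 were LOC124900216 and LOC105376505 at 0.28, MIAT at 0.31, CREBRF and LOC124902717 at 0.32, IGIP at 0.33, and ACTR3-AS1, SLC9A5, SLFN5 and LOC124904287 at 0.34. The median distance over all genes was 1.01, and a flat profile would lie at 0.95. MIAT ran from 9.50 to 10.995 CPM at day 9 and from 39.5 to 53.0 CPM at day 6, and CREBRF, a regulator of the CREB3 family, from 3.53 to 4.03 CPM and from 15.7 to 28.7 CPM. SLFN5, a Schlafen family gene, ran from 6.66 to 7.98 CPM at day 9 and from 29.5 to 34.6 CPM at day 6. These genes were picked for likeness in the same libraries, so the likeness is a description.

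None of the 7 other genes described here was among the 10 nearest to NEAT1. MALAT1 ranked 4591 and CPSF6 4957 of the other genes tested, and RBM14, at a distance of 1.28, ranked 18185. Nearest to MALAT1 were the mannosidase gene MAN2C1 at 0.15, ING4 at 0.16 and CDK5RAP3, ENGASE and S100PBP at 0.17 to 0.18, where a flat profile would lie at 0.29. NEAT1 ranked 18361 from MALAT1.

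**Figure D5:**
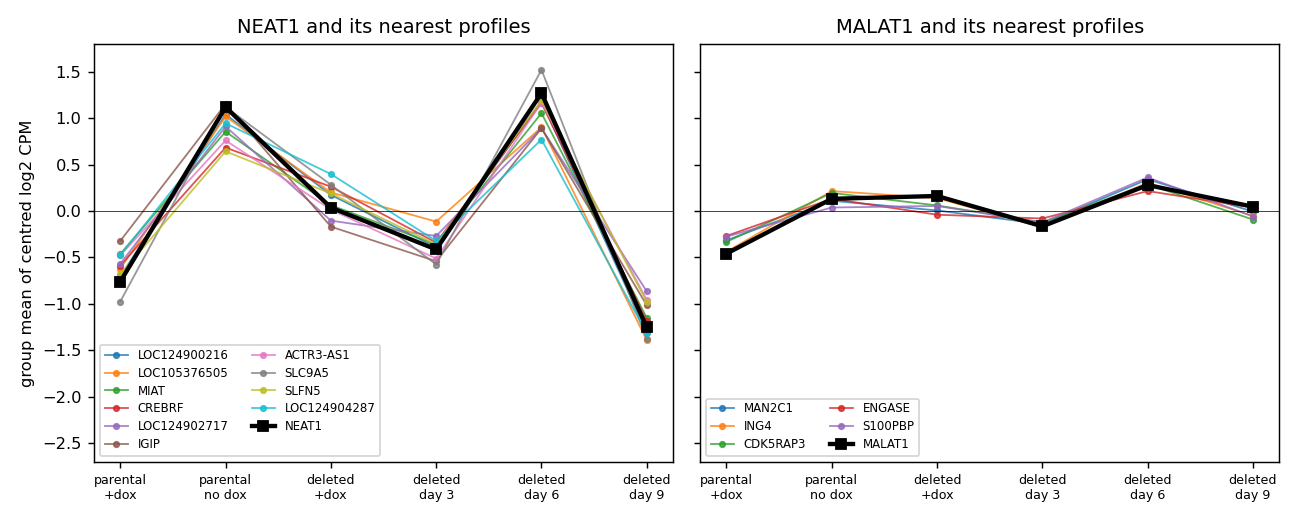
Group means of log2 CPM, centred over the 18 libraries, for NEAT1 with its 10 nearest genes (left) and MALAT1 with its 5 nearest (right), 1 line per gene. The NEAT1 set has its high points in the parental line with no doxycycline and at day 6 and its low point at day 9, while the MALAT1 set stays within a narrow band.

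Around the 2 RNAs, 39 other genes lie within 250 kb of NEAT1 or MALAT1, of which 29 were tested. At day 6, 1 rose and 9 fell, at day 9, 15 rose and 2 fell, and in the parental line with no doxycycline 2 rose and 11 fell, with medians of -0.19, 0.32 and -0.14 on the log2 scale. The called shares were 34.5%, 58.6% and 44.8%, against 28.1%, 46.4% and 39.4% of all genes. FRMD8, which shares exons with NEAT1, went the other way from it: its means were 28.3 CPM in the parental line with doxycycline and 19.8 CPM with none, and in the deleted line 19.7 CPM with doxycycline and 26.4, 17.2 and 39.1 CPM at days 3, 6 and 9. FRMD8 rose by 0.99 at day 9 and fell by 0.52 in the parental line (edgeR adjusted p = 5.8e-06 and 0.0037). Neither its part in the NEAT1 counts nor that of reads assigned to neither gene was tested.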

How the data were processed

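RNA from HAP1 cells was sequenced as 151-bp paired-end reads, per the labels' protocols, and the tools listed in the submitters' processing notes are cutadapt 2.3, featureCounts of Subread, HISAT2, SAMtools and DESeq2, with the build GRCh38. Per the file headers the alignments carry the code RF of a stranded library, and no source used here gives the strand setting of the counting step or its treatment of shared reads. The authors deposited whole-number counts per gene, not normalized, and per the file headers a Length column of other kind, the exonic bases of each gene. In 1 file the lines of 16 genes were broken and were rejoined, and 6 libraries held in 2 tables were identical.

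The 8 members and all lists were chosen with earlier results of these data known. Counts of 18 libraries in 6 groups of 3 were fitted in 1 edgeR 4.0.16 quasi-likelihood model (R 4.3.3) with 1 mean per group, TMM scaling and filterByExpr by group, and p-values were adjusted by Benjamini-Hochberg over all 21615 genes tested, called at 0.05. CPM are scaled by TMM, and distances used log2 CPM with a prior count of 2. Named were all members, the 3 called genes of largest change per list and comparison, of which a part is printed, the nearest profiles and neighbours. A test on data simulated for day 6 had 100 genes changed by 0.5 and 100 changed by 1 on the log2 scale. It recovered 34% and 72% of them, with 5 false calls among 21615 genes. Far fewer genes were changed there than the 28.1% called at day 6, so these shares do not measure recovery in the data themselves. Alternatives were RLE factors, library size alone, no filter, DESeq2 1.42.0, the compared groups alone, the replicate number as a block, removal of the trend along gene span, and each library left out.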

Additional observations from a re-analysis of the deposited data

Results flagged for a closer look

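The response to no doxycycline differed between the deleted and the parental line for 4 of the 6 protein genes by edgeR's test of the difference itself, 18 of which were run. At days 3, 6 and 9, 3, 2 and 3 of the 6 passed, where 39.5%, 12.6% and 51.7% of all genes did. On the log2 scale, deleted minus parental line, the values were 0.49 at day 3 and 1.04 at day 9 for RBM14, 0.54 and 0.52 at the same days for HNRNPK, -0.53, -0.46 and -0.49 at days 3, 6 and 9 for CPSF6, and -0.43 at day 6 for SFPQ. CPSF6 was higher without doxycycline in the parental line, and in the deleted line its libraries overlapped those with doxycycline at each day.

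For the 2 RNAs the difference was not tested, and they are given here because every library of the deleted line went one way and every library of the parental line the other. The values were -2.34 at day 3 and -3.13 at day 9 for NEAT1 and -0.92 at day 3 for MALAT1.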

How the results depend on the processing

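Of 66 tests of the 6 protein genes over 11 comparisons, 29 passed, where 12.6% to 58.8% of all genes did, depending on the comparison. Of these 29, 22 kept their direction and passed under all alternatives run, a count not made over all genes. The other 7 were the differences of SFPQ, NONO and PSPC1 between days 3 and 6, PSPC1 between days 3 and 9 and in the parental line, HNRNPK between days 6 and 9, and SFPQ at day 6 between the lines. Fitted on the compared groups alone, the calls among the 6 and the 34 other paraspeckle protein genes went from 5 to 14 of 40 at day 3 and from 6 to 15 between lines with doxycycline. Over all genes the called share went from 13.4% to 29.8% and from 19.3% to 33.7% in the same fits. The cause was not tested. Leaving out 1 library gave 2 to 6 calls at day 3 and 11 to 17 at day 6 (main 17). At day 3 there were 2 without deleted line replicate 1 with doxycycline or day 3 replicate 3, where 5.26% and 5.12% of all genes passed. There were 3 without deleted line replicate 2 with doxycycline or day 3 replicate 2 (6.51% and 6.17% of all genes). At day 6 there were 11 without deleted line replicate 3 with doxycycline, where 18.2% of all genes passed.

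Signs turned only for differences that had not passed. NONO at day 9 against doxycycline was -0.038 by library size alone, -0.032 with the span trend removed and -0.11 to 0.14 with 1 library left out, and against day 3 it was -0.18 to 0.058. NONO at day 6 between the lines was -0.12 to 0.0078. PSPC1 at day 6 was -0.085 with the span trend removed and -0.033 to 0.063 with 1 library left out, and at day 3 between the lines it was 0.040 with that trend removed. SFPQ between lines with doxycycline was -0.083 to 0.0086, and HNRNPK between days 3 and 9 was -0.12 to 0.054, with 1 library left out. CPSF6 at day 9 against doxycycline was 0.0035 by RLE, 0.0070 with no filter, 0.0019 on the compared groups and 0.0035 by DESeq2, and -0.077 to 0.075 with 1 library left out. With 1 library left out, CPSF6 was -0.015 to 0.047 at day 6 against doxycycline, -0.099 to 0.045 between days 6 and 9 and -0.028 to 0.12 between days 3 and 9, the last also -0.020 by library size alone. The difference between lines at day 9 was -3.42 for NEAT1 without day 9 replicate 3 and -0.91 for MALAT1 without day 9 replicate 1. With the span trend removed, PSPC1 at day 9 between the lines was 0.45 and passed.

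With the replicate number as a block, 5, 16 and 20 of 40 genes passed at days 3, 6 and 9, 25 in the parental line and 6 between lines. Of all genes 12.4%, 27.0%, 45.7%, 39.0% and 18.6% passed in that fit, in the same order. Same-numbered libraries did not deviate together (Pearson r across genes from -0.08 to 0.07), so the labels share only a number. NEAT1 rests on 190 to 1804 counts per library, which limits its precision most at day 9.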
